A study of Mus musculus with 6 samples.

Results

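The presynaptic vesicle and release machinery was followed here as 31 genes that encode proteins of synaptic vesicles, SNARE proteins and their regulators, active zone scaffolds and vesicular transmitter transporters. Members were taken by gene symbol from a given list and not by a cut on measured values. The list was drawn up with earlier results of these data known. All 31 members were found among the 35857 genes of the files. The cortex of 6 C57BL/6 mice was sampled at age P7 (postnatal day 7): 3 control brains were of wild type genotype and 3 were Qk-/-, called knockout below. Qk encodes quaking, an RNA-binding protein that acts in splicing, stability and translation of its target RNAs. How the Qk allele was made, and in which cells it was removed, is not given in the sources used here. Polyadenylated RNA was sequenced on the Ion Proton, and expression was given as TPM, transcripts per 1000000, a length-scaled level that sums to the same total in every library. Values of single libraries stand in the order of replicates 1, 2 and 3, and levels are compared between genes only as TPM.

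A synaptic vesicle is filled with transmitter by a transporter in its membrane, held near the membrane of the nerve ending by scaffold proteins of the active zone, and made ready for release by priming factors. Release follows when a SNARE protein on the vesicle zips together with SNARE proteins of the cell membrane, a step that complexins clamp and assist and that synaptotagmins couple to calcium. The SNARE complex is then taken apart by an ATPase and its adaptors. In the mouse cortex, synapse formation is under way in the first postnatal weeks, and transcripts of this machinery rise with neuronal maturation.

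The libraries detected 18971 to 19710 genes each, and the number of reads is unknown, since TPM keeps no depth. Qk checked the labels, with 36.5, 43.2 and 41.3 TPM in the control brains against 14.6, 15.2 and 15.4 TPM in the knockout brains (limma, adjusted p = 0.000855). Of 13 markers of neurons, none was at 0 in the files, and their summed level was 9643 to 10357 TPM in control and 9546 to 10254 TPM in knockout libraries. That sum is dominated by a few genes of very high level. Of the 13 neuron markers 3 lay lower in the knockout without overlap of the groups and 0 higher. The shares over all tested genes were 8.98% lower and 5.2% higher. The sum of 12 astrocyte markers was 1088 to 1173 TPM in control and 758 to 818 TPM in knockout libraries, and that of 12 markers of the oligodendrocyte lineage 556 to 591 and 497 to 528 TPM. Of the 12 astrocyte markers 5 passed the test as lower and 0 as higher. Of the 12 markers of the oligodendrocyte lineage 4 passed as lower and 1 as higher. Over all 14994 tested genes 0.387% passed in either direction. No gene passed in the lists for neurons, excitatory cortical neurons, interneurons, subplate, thalamus, striatum, microglia, endothelium and choroid plexus. At an unadjusted p under 0.05 (limma) were 3 of 10 microglia, 3 of 13 interneuron, 2 of 12 excitatory and 2 of 13 neuron markers. So were 1 of 7 subplate, 1 of 9 thalamus, 1 of 10 striatum, 1 of 8 endothelium and 0 of 7 choroid plexus markers. Over all tested genes the share was 8.72%, and all these small lists but choroid plexus lay above it. In these bulk samples fewer cells of a type and less RNA per cell cannot be told apart.

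The machinery was strongly expressed in control cortex, and its members spanned a wide range. Together the 31 genes took 0.605% ± 0.0129 (SD, n = 3) of all TPM in control and 0.597% ± 0.00663 (SD, n = 3) in knockout libraries. In control cortex 18 members were at 100 TPM or more, 9 lay between 12 and 100 TPM, and 4 lay under 12 TPM. By mean level, 17 members were among the top 10% of tested genes. The highest was Rab3a at 742 ± 36.7 TPM, followed by Snap25, Slc17a7 and Syp, and the lowest was Syt2 at 1.79 ± 0.125 TPM (SD, n = 3), a 415-fold range. Control brains resembled each other closely in these genes: the coefficient of variation was under 10% for 26 members, with a median of 4.42% and extremes of 0.677% (Snap25) and 19.3% (Sv2c).

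**Figure D1:**
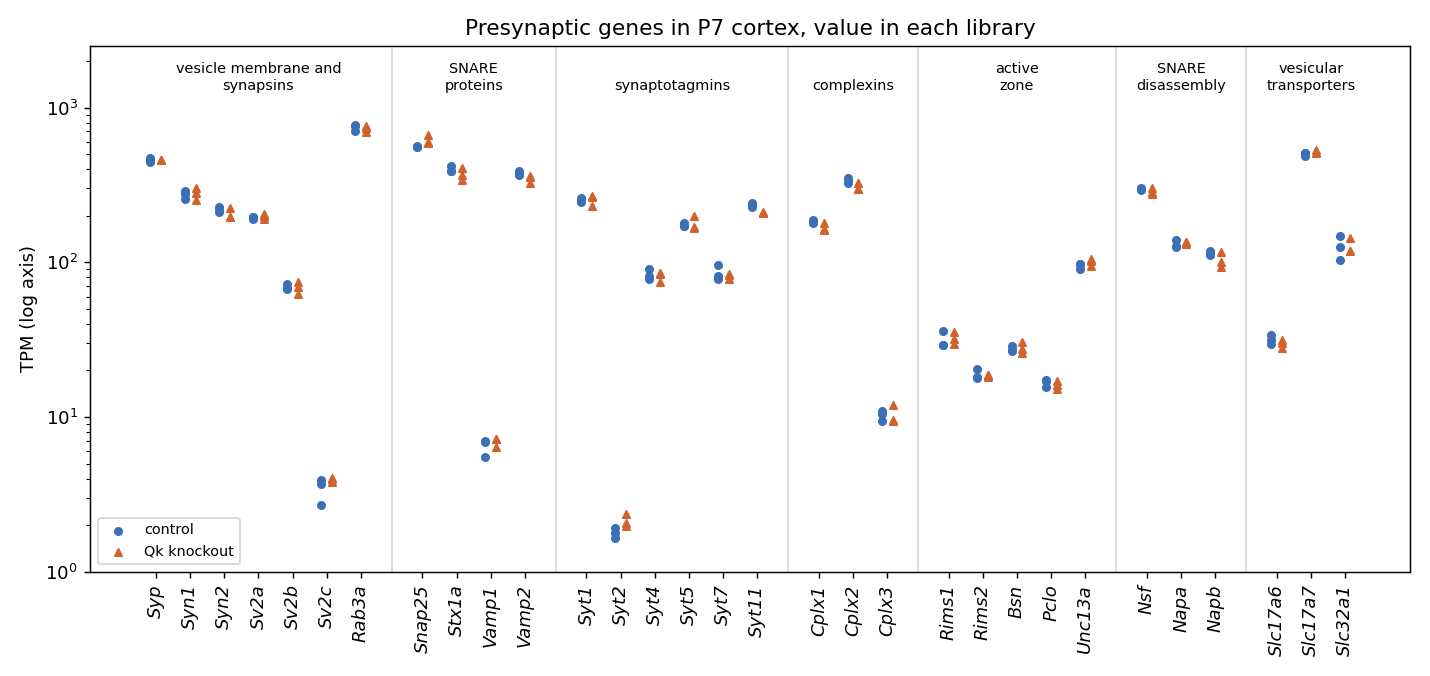
TPM on a log axis for each of the 31 members in each library, grouped by role, with circles for 3 control and triangles for 3 knockout libraries. The levels run from Syt2 near 2 TPM to Rab3a above 690 TPM, and within each gene the 6 libraries lie close together.

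No member changed at the threshold in the knockout cortex. All 31 members passed the filter on low values, a mean TPM of 1 or more, and were tested with limma on log2(TPM + 1) together with every other gene that passed it. Of the members 0 of 31 had an adjusted p of 0.05 or less, beside 0.387% of all 14994 tested genes. At an unadjusted p under 0.05 there was 1 member, Syt11, while 8.72% of all tested genes were under it. The lowest adjusted p among members was 0.497 and the highest 0.997. The log2 change, knockout minus control, ran from −0.16 (Syt11) to 0.17 (Syt2), with a median of −0.003 over the members and −0.03 over all tested genes. Of the 31 changes 17 were negative, and only 12 were negative after scaling by median-of-ratios size factors and 13 after quantile normalization, so the sign of the smallest changes depended on scaling. In plain ratios, the knockout mean lay between 0.9 and 1.1 times the control mean for 28 members. The exceptions were Syt2 (1.19 times), Sv2c (1.14) and Syt11 (0.895).

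The intervals show how large a change these libraries leave room for. The 95% interval of the log2 change, taken gene by gene without adjustment, lay wholly within ±0.5 for 29 of 31 members (93.5%), the exceptions being the weakly expressed Sv2c and Syt2. The same held for 63.6% of all tested genes and 93.9% of those with a mean of at least 50 TPM. It lay within ±0.25 for 14 members (45.2%), beside 13.1% of all tested genes and 37.2% of those with a mean of at least 50 TPM. The median SD between libraries of a group was 0.09 on the log2 scale for members, 0.15 for all tested genes and 0.11 for those of at least 50 TPM.

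**Figure D2:**
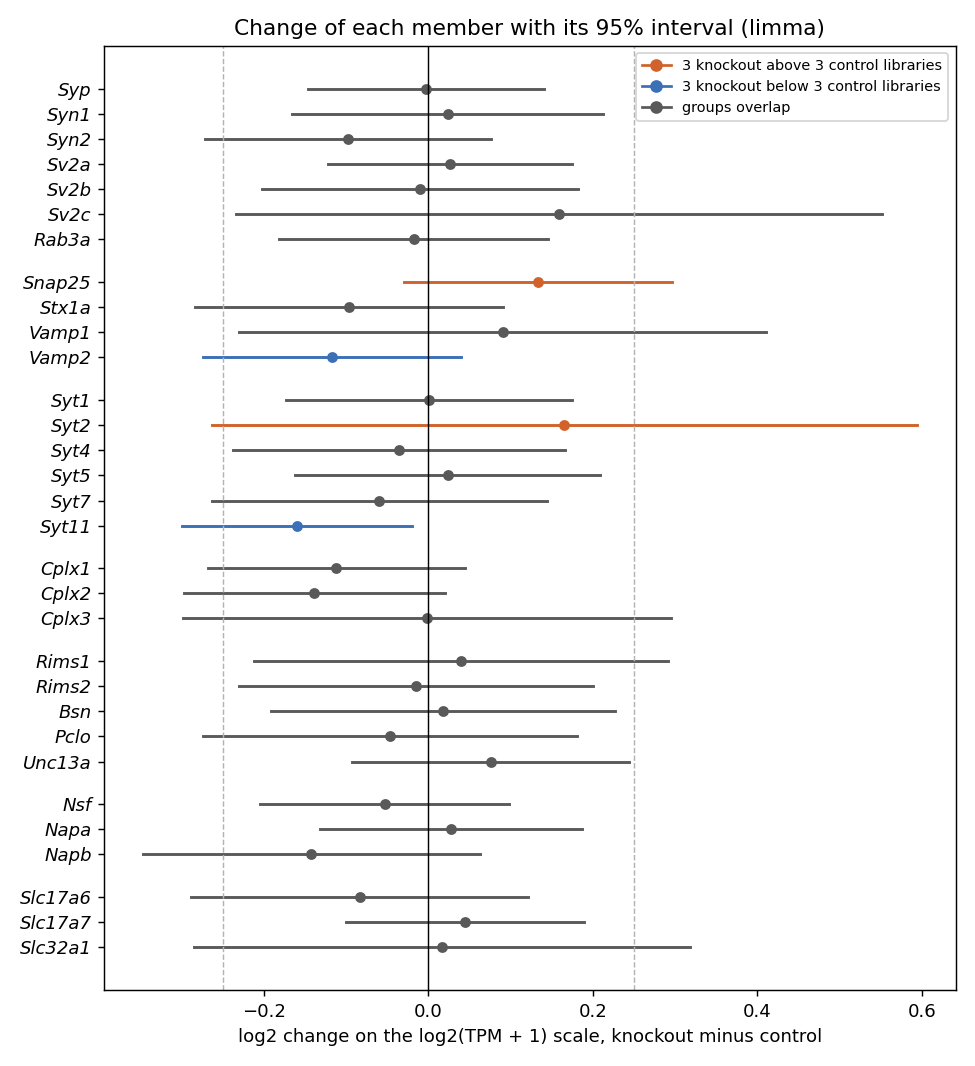
Log2 change on the log2(TPM + 1) scale (x axis, knockout minus control) of each member with its 95% interval from limma, in order of role; dashed lines mark ±0.25, orange marks genes whose 3 knockout libraries lay above all controls and blue those below. The intervals of all members but Syt11 include 0, and the widest belong to Syt2, Sv2c and Vamp1, while Slc32a1, a member of higher level, has one about as wide as Cplx3.

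In 4 members the knockout values did not overlap the control values, 12.9% of members beside 14.2% of all tested genes. Snap25 and Syt2 lay higher in all 3 knockout libraries, and Vamp2 and Syt11 lower. By direction, 5.2% of all tested genes lay higher without overlap and 8.98% lower. The members' share was thus close to the background share. None of the 4 differences passed the test.

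**Figure D3:**
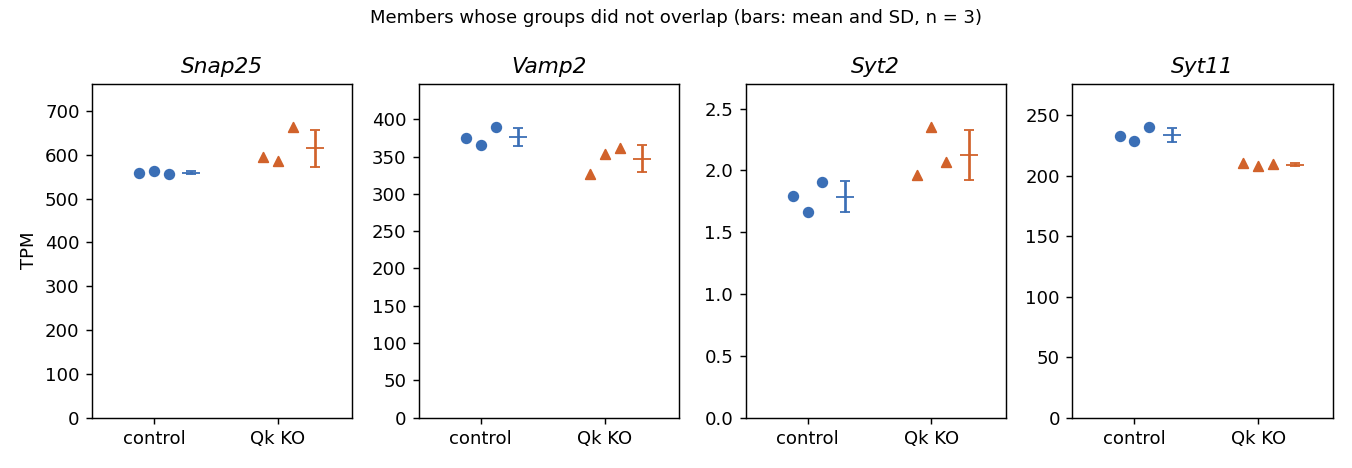
TPM (y axis from 0) of Snap25, Vamp2, Syt2 and Syt11 in each of 3 control and 3 knockout libraries, with the mean and SD beside the points. The groups do not touch in any panel, yet the knockout means differ from control by no more than 1.19 times (Syt2).

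Quaking binds RNA at a core of the letters ACTAAC or ACTAAT (T for U), so the 3′ UTRs of the members were searched for these 6 letters on the sense strand, in the transcript with the longest 3′ UTR of each gene (GENCODE vM21, GRCm38). The motif was present in 11 of 31 members (35.5%) and in 34.5% of 13769 tested genes with a 3′ UTR. The members' 3′ UTRs were longer, with a median of 2235 bases against 1197, and held 0.192 sites per kb against 0.342 over all tested genes. The 11 members with a site were Cplx1, Pclo, Rims2, Sv2a, Sv2b, Sv2c, Syn2, Syt1, Syt2, Syt7 and Vamp1, with 15 sites in all. Windows of 30 bases around sites are shown for Syt2, the one member with separated groups that holds a site, and, as examples, for 5 other members that have a paralog among the 31. The capitals mark the motif, and each window lies in the 3′ UTR of the named gene, 5′ to 3′ in the direction of the transcript.
Syt2, first site (chr1:134747996-134748025, plus strand): gacagttgaagcACTAACtgcttttcctgg
Syt2, second site (chr1:134752609-134752638, plus strand): cagtcgtatgttACTAATacaggggacctc
Syt1 (chr10:108499584-108499613, minus strand): acttaaacagaaACTAATagctctccagta
Syn2 (chr6:115276182-115276211, plus strand): catttgtgagccACTAATataaagttgcca
Vamp1 (chr6:125220934-125220963, plus strand): tcttgccatctcACTAATgaaaggcctgtc
Cplx1 (chr5:108519840-108519869, minus strand): ggacccctccttACTAATcttaagttcacc
Sv2a (chr3:96195158-96195187, plus strand): aaaggaagttaaACTAACcacaaaaagaaa

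Changes of members with and without such a site covered overlapping ranges. The median log2 change was −0.01 over the 11 members with a site, with a range of −0.11 (Cplx1) to 0.17 (Syt2), and −0.002 over the 20 without, with a range of −0.16 (Syt11) to 0.13 (Snap25). Syt11, Snap25 and Vamp2 hold none of these letters in the 3′ UTR searched. A match of letters is a description of sequence and not a measured binding site.

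Among proteins of the vesicle membrane, Syp, the gene of synaptophysin, an abundant vesicle membrane protein, was at 475, 443 and 458 TPM in control and 460, 457 and 455 TPM in knockout replicates 1, 2 and 3. The 3 knockout values all lay inside the control range. Syn1 and Syn2 encode synapsins, which tether vesicles to each other in the reserve pool. Syn1 was at 256, 274 and 288 TPM in control and 254, 278 and 301 TPM in knockout libraries, with overlap at both ends. Syn2 was at 228, 210 and 220 TPM in control and 196, 195 and 223 TPM in knockout libraries, where replicates 1 and 2 lay below all controls and replicate 3 among them (log2 change −0.10, 95% interval −0.27 to 0.08, adjusted p = 0.778). Rab3a, a small GTPase of vesicles that binds active zone proteins, was at 700, 754 and 771 TPM in control and 759, 697 and 740.5 TPM in knockout libraries, also overlapping.

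The SV2 genes encode glycoproteins of the vesicle membrane, of which Sv2a is the binding site of the antiepileptic drug levetiracetam. Sv2a was at 194 ± 3.97 and 197 ± 7.80 TPM in control and knockout, Sv2b at 69.1 ± 3.19 and 68.7 ± 5.76 TPM, and Sv2c at 3.45 ± 0.665 and 3.93 ± 0.127 TPM (SD, n = 3). The order Sv2a, Sv2b, Sv2c held in every library. None of the 7 genes of this group had groups that were separate, and the lowest adjusted p was 0.778 (Syn2).

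Among SNARE genes, Snap25 and Vamp2 had separate groups, in opposite directions. Snap25, which encodes a SNARE of the cell membrane, was at 559, 563 and 556 TPM in control and 595, 586 and 663 TPM in knockout replicates 1, 2 and 3. All knockout libraries lay above all controls, with replicate 3 highest (log2 change 0.13, 95% interval −0.03 to 0.30, adjusted p = 0.656). Its unadjusted p went from 0.0964 to 0.0484 under median-of-ratios scaling and to 0.332 without knockout replicate 3, where the log2 change was 0.08. Vamp2, the vesicle SNARE of most forebrain synapses, was at 375, 365 and 389 TPM in control and 327, 353 and 361 TPM in knockout libraries. Here all knockout libraries lay below all controls (log2 change −0.12, 95% interval −0.27 to 0.04, adjusted p = 0.697). Without knockout replicate 1 the log2 change of Vamp2 was −0.08.

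Their partners overlapped between groups. Stx1a, the second SNARE of the cell membrane, was at 386, 417 and 388 TPM in control and 409, 367 and 340 TPM in knockout libraries (log2 change −0.10, adjusted p = 0.803). Vamp1, a vesicle SNARE more typical of brainstem, spinal cord and fast-spiking neurons, was at 6.46 ± 0.847 and 6.91 ± 0.489 TPM (SD, n = 3), 58.3-fold below Vamp2 in control cortex. The summed level of the 4 SNARE genes was 1326 to 1352 TPM in control and 1314 to 1371 TPM in knockout libraries.

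Among synaptotagmins, Syt1, the calcium sensor of fast release in forebrain neurons, was at 246, 259 and 254 TPM in control and 263, 230 and 268 TPM in knockout libraries, so that the control values all lay inside the knockout range. Its log2 change was 0.001, with a 95% interval of −0.17 to 0.17. Syt2, the fast sensor of hindbrain synapses and of some interneurons, was at 1.79, 1.66 and 1.91 TPM in control and 1.96, 2.35 and 2.07 TPM in knockout libraries. The groups did not overlap, but the level was 142-fold below that of Syt1 in control cortex and the interval was wide (log2 change 0.17, 95% interval −0.26 to 0.59, adjusted p = 0.87).

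Syt11 and Syt4 encode synaptotagmins that are not known as calcium sensors of fast release. Syt11 was at 233, 229 and 240 TPM in control and 211, 208 and 209 TPM in knockout replicates 1, 2 and 3. The 3 knockout libraries lay within 3 TPM of each other and below every control (234 ± 5.78 and 209 ± 1.46 TPM, SD, n = 3). The log2 change of Syt11 was −0.16 ± 0.0617 (standard error), with a 95% interval of −0.30 to −0.02 and an adjusted p of 0.497 from limma. Unadjusted, the limma p was 0.0298, and 0.061 with the replicate number as a block. The summed astrocyte and oligodendrocyte lineage markers given above were lower in every knockout library too, but not every marker was. Of 12 astrocyte markers 9 lay lower without overlap and 1 higher, and of 12 oligodendrocyte lineage markers 5 lower and 2 higher. Of all tested genes 8.98% lay lower and 5.2% higher without overlap. The part of astrocytes and oligodendrocyte lineage cells in the Syt11 values was not tested. Syt4 was at 77.8, 80.9 and 91.1 TPM in control and 74.4, 83.7 and 85.4 TPM in knockout libraries, with overlapping groups.

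The other two synaptotagmins overlapped as well. Syt5 was at 175 ± 4.73 and 179 ± 17.3 TPM, with knockout replicate 2 highest at 198 TPM. Syt7, a high-affinity sensor of slow and asynchronous release, was at 85.1 ± 9.10 and 81.3 ± 3.47 TPM (SD, n = 3), with control replicate 3 highest at 95.4 TPM.

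Both abundant complexins were lower on average in the knockout, without separation of the groups. Cplx2 was at 325, 339 and 349 TPM in control and 297, 326 and 297 TPM in knockout libraries, where replicate 2 reached the lowest control (log2 change −0.14, 95% interval −0.30 to 0.02, adjusted p = 0.633). Cplx1 was at 179, 187 and 181 TPM in control and 165, 179 and 162 TPM in knockout libraries, with replicate 2 again the highest of the knockout values (log2 change −0.11, adjusted p = 0.714). Cplx3, in cortex a gene of the subplate and layer 6b, was at 10.3 ± 0.812 and 10.3 ± 1.43 TPM (SD, n = 3). It was 32.8-fold below Cplx2 in control cortex.

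The active zone genes were the least abundant role group per gene, apart from Unc13a. Bsn and Pclo encode the giant scaffolds bassoon and piccolo. Bsn was at 28.8, 26.8 and 27.0 TPM in control and 27.7, 30.3 and 25.8 TPM in knockout libraries. Pclo was at 16.7 ± 1.01 and 16.1 ± 0.931 TPM. Both overlapped between groups. Rims1 and Rims2 encode RIM proteins, which link Rab3 on vesicles to priming factors and calcium channels.

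Rims1 was at 31.4 ± 3.89 and 32.2 ± 2.87 TPM and Rims2 at 18.8 ± 1.37 and 18.5 ± 0.359 TPM in control and knockout (SD, n = 3). Unc13a, which encodes the priming factor Munc13-1, was at 91.1, 97.4 and 97.9 TPM in control and 106, 102 and 94.4 TPM in knockout libraries. Knockout replicates 1 and 2 lay above all controls and replicate 3 among them (log2 change 0.08, 95% interval −0.09 to 0.24, adjusted p = 0.838). The log2 changes of the 5 active zone genes ran from −0.05 to 0.08.

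The genes for taking SNARE complexes apart are Nsf, an ATPase, and Napa and Napb, which encode its adaptors alpha-SNAP and beta-SNAP. Nsf was at 292, 300 and 304 TPM in control and 277, 283 and 303 TPM in knockout libraries, with replicate 3 among the controls. Napa was at 131 ± 7.75 and 134 ± 2.54 TPM (SD, n = 3). Napb, the neuronal adaptor, was at 111, 119 and 113 TPM in control and 101, 93.7 and 117 TPM in knockout libraries. Replicates 1 and 2 lay below all controls and replicate 3 inside their range (log2 change −0.14, 95% interval −0.35 to 0.06, adjusted p = 0.725). The log2 change of Napb was −0.07 without knockout replicate 2 and −0.23 without knockout replicate 3, where the adjusted p from limma was 0.54 and the unadjusted p 0.0246.

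The vesicular transporters set which transmitter a vesicle carries. Slc17a7 encodes VGLUT1, the glutamate transporter of most cortical projection neurons, and was at 484, 505 and 508 TPM in control and 530, 506 and 509 TPM in knockout libraries. Slc17a6 encodes VGLUT2, the glutamate transporter of thalamic axons that is also present in young cortical neurons, and was at 31.5, 29.4 and 34.0 TPM in control and 29.9, 28.1 and 31.3 TPM in knockout libraries. Slc32a1 encodes VGAT, the transporter for GABA and glycine, and was at 103, 126 and 148 TPM in control and 118, 143 and 119 TPM in knockout libraries. The order Slc17a7, Slc32a1, Slc17a6 held in all 6 libraries with no overlap between the genes, and none of the 3 differed between groups beyond the spread.

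Among these transporters the intervals differed in width. The log2 change was 0.04 for Slc17a7 (95% interval −0.10 to 0.19, adjusted p = 0.9), −0.08 for Slc17a6 (−0.29 to 0.12, adjusted p = 0.855) and 0.02 for Slc32a1 (−0.29 to 0.32, adjusted p = 0.982). Slc32a1 varied most between control brains, with a coefficient of variation of 17.9%. The summed level of 13 inhibitory interneuron markers, which Slc32a1 accompanies in cortex, was 1946 to 2243 TPM in control and 2369 to 2440 TPM in knockout libraries, and 0 of the 13 passed the test (limma, 3 at an unadjusted p under 0.05). That sum is dominated by the peptide genes Sst and Npy, which were higher without overlap, whereas the 13 markers had a median log2 change of 0.01, with 7 markers positive and 6 negative.

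Shares within sets of related members do not depend on how a library is scaled. Each set held only the members named with its share, and other paralogs were not counted. The 8 shares were compared with exact two-sided permutation tests, adjusted over the 8. With 3 against 3 libraries the smallest possible p is 0.1. The groups overlapped in all 8, the lowest p was 0.2, and the adjusted p was 0.48 or 0.9. Slc17a6 made up 6.10%, 5.51% and 6.26% of the summed TPM of Slc17a6 and Slc17a7 in control and 5.34%, 5.27% and 5.79% in knockout libraries (exact permutation p = 0.2, adjusted p = 0.48). The knockout values sat low, but replicate 3 lay above the lowest control.

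Syn2 made up 44.6% ± 2.15 and 42.5% ± 1.18 of Syn1 and Syn2, and Napb 46.5% ± 1.78 and 43.6% ± 2.48 of Napa and Napb in control and knockout. Cplx1 made up 35.1% ± 0.834 and 35.5% ± 0.17 of Cplx1 and Cplx2, Rims2 37.5% ± 3.93 and 36.6% ± 1.75 of Rims1 and Rims2, and Sv2b 26.0% ± 0.720 and 25.5% ± 2.03 of the SV2 genes. Vamp1 made up 1.69% ± 0.219 and 1.96% ± 0.219 of Vamp1 and Vamp2, and Syt2 0.702% ± 0.0575 and 0.839% ± 0.148 of Syt1 and Syt2 (all SD, n = 3). TPM was thus shared between the paralogs of the Syn, Nap, Cplx, Rims and SV2 sets. Vamp2, Syt1 and Slc17a7 carried nearly all of the TPM of their pairs. The pair of Syt1 and Syt2 leaves out other synaptotagmins, among them Syt11 at 234 TPM in control.

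**Figure D4:**
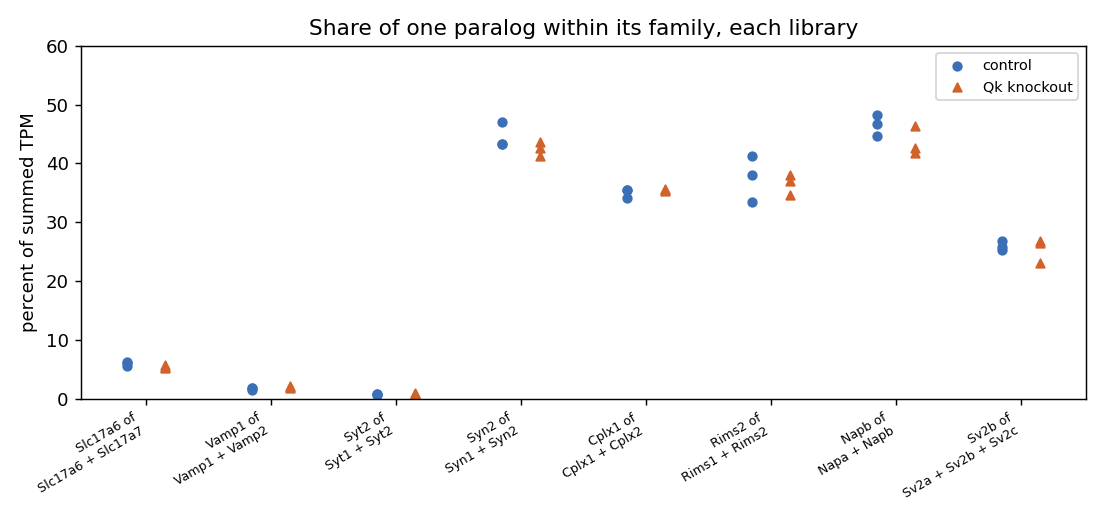
Percent of the summed TPM of a set of related members taken by 1 paralog (y axis from 0) in each of 3 control (circles) and 3 knockout (triangles) libraries. Control and knockout points overlap in all 8 sets, from Syt2 at under 1.1% to Napb at up to 48.2%.

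Of 103 other presynaptic genes listed beside the members, 100 were tested, and 0 passed (limma). Of the 100, 9 were at an unadjusted p under 0.05, beside 8.72% of all tested genes in either direction. All 9 were lower in the knockout, whereas of all 14994 tested genes 794 were lower and 513 higher at that p. The groups were separate in 16 of the 100, and in all 16 the knockout was lower, beside 8.98% of all tested genes lower and 5.2% higher without overlap. The median log2 change of the 100 was −0.06, and 71 were negative, beside −0.03 and 8550 of 14994 over all tested genes. By role, separated groups were seen in 5 of 19 endocytosis genes, 3 of 17 vesicle membrane genes, 3 of 15 genes of SNARE proteins and their partners, 2 of 21 active zone genes, 1 of 14 calcium sensors and complexins, 1 of 13 transporter and pump genes, and the 1 SNARE disassembly gene.

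The lowest p values among these genes belonged to Atp6v0c, Sncb and Syngr3. Atp6v0c, a subunit of the proton pump that energizes vesicle filling, was at 139, 918 and 886 TPM in control and 61.6, 79.9 and 125 TPM in knockout replicates 1, 2 and 3. Control replicate 1 lay close to the knockout libraries and far from the other controls (log2 change −2.50, 95% interval −3.94 to −1.05, adjusted p = 0.229). Without control replicate 1 the gene passed (limma, adjusted p = 0.00139), as 1 of 100 other presynaptic genes and beside 53 of all 14994 tested genes. Atp6v0c did not pass when any other library was left out. Sncb, which encodes beta-synuclein, was at 452, 397 and 453 TPM in control and 345, 374 and 348 TPM in knockout libraries, lower without overlap (log2 change −0.28, adjusted p = 0.274). Syngr3, a synaptogyrin of the vesicle membrane, was at 303 ± 51.5 and 236 ± 18.1 TPM (SD, n = 3; adjusted p = 0.451), with overlapping groups.

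In the other direction low p values included those of Slc18a2 and Unc13c, with adjusted p of 0.771 and 0.803. Slc18a2, the vesicular monoamine transporter VMAT2, was at 3.49 ± 1.01 and 4.53 ± 1.25 TPM (SD, n = 3). Close partners of the members did not pass the test either. Rab3c was at 41.9 ± 0.772 and 44.3 ± 3.05 TPM and Unc13b at 14.3 ± 0.823 and 13.5 ± 0.361 TPM. Syn3, the third synapsin, was at 24.2 ± 2.21 and 20.02 ± 1.74 TPM (SD, n = 3), lower without overlap in the knockout (log2 change −0.26, 95% interval −0.50 to −0.02, adjusted p = 0.537).

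**Figure D5:**
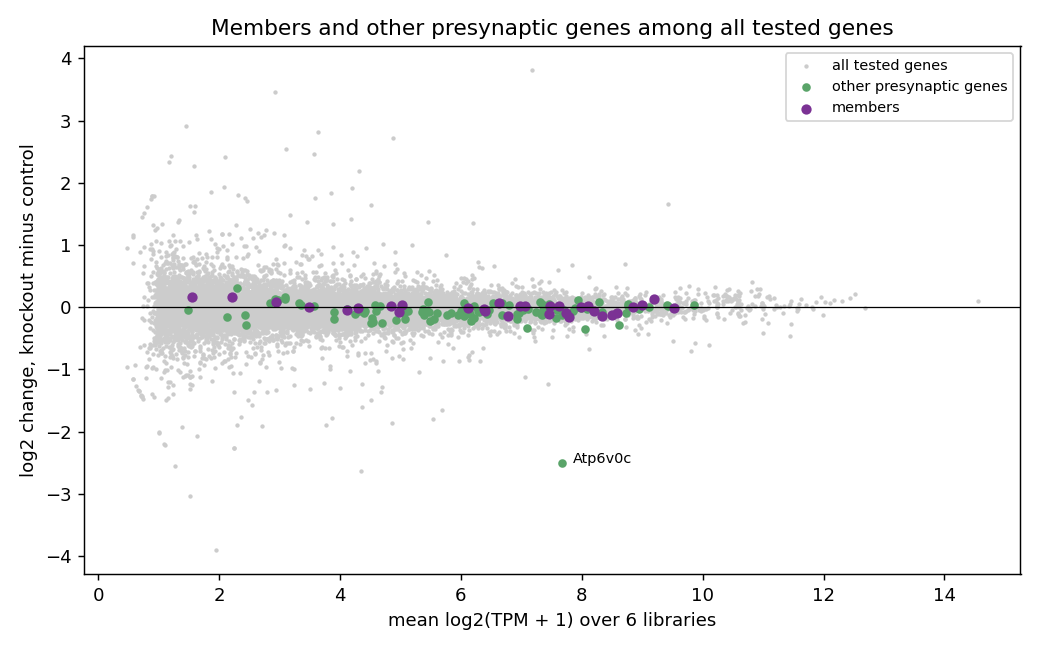
Log2 change (y axis, knockout minus control) against mean log2(TPM + 1) over the 6 libraries (x axis) for all tested genes (grey), 100 other presynaptic genes (green) and the 31 members (purple). The members lie between −0.16 and 0.17, and of the other presynaptic genes Atp6v0c stands apart at −2.50.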

How the data were processed

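The 6 libraries were grouped by their titles and genotype labels. The submitters' processing notes name STAR 2.4.1d, RSEM 1.3.0 and the builds mm10 and GRCm38.p4; the sources used here give neither the annotation nor whether counting used strand. The values deposited by the authors are TPM per gene and sum to 1000000 per library, so reads, depth and counting error cannot be recovered. Genes whose mean TPM was 1 or more were fitted as log2(TPM + 1) with limma 3.58.1 in R 4.3.3 (lmFit, eBayes with trend, group only), with Benjamini-Hochberg adjustment of the two-sided p over 14994 genes and a threshold of 0.05; log2 changes are given on this scale, which understates those of low genes. The limma p-values compare the difference between groups with the spread between libraries of separate brains, moderated over all tested genes.

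The members and lists were chosen with earlier results of these data known. All members are named; of 103 other presynaptic genes, the 3 of smallest p in each direction and 5 set partners are named, and from marker lists none unless past the threshold; those that passed are given only in sums. Some genes named by this rule are not reported here. Vamp7 is not analysed here. On simulated data for this comparison (14994 genes), 25% of genes changed by 0.5 and 65% of those changed by 1 on the log2 scale were recovered, 9.09% of calls were unchanged genes, and 95% of intervals held the true change. Exons of 10 members overlap a gene of the opposite strand, by 9 to 875 bases. TPM are gene totals, so splice forms were not measured. Motifs were searched in GENCODE vM21 transcripts.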

Additional observations from a re-analysis of the deposited data

How the results depend on the processing

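None of the 31 members passed in any of the other 14 settings run with limma (other pseudocounts, filters, scaling, no trend, replicate block, each library left out), in which 0 or 1 was at an unadjusted p under 0.05. With the replicate number as a block 0 members passed (lowest adjusted p = 0.624), and 38 of all genes did against 58. Of all genes, 74 passed with the filter of 5 TPM, 37 with no filter, 28 without the trend, 51 to 60 with other pseudocounts or scalings, and 20 to 53 with 1 library left out. Deviations of same-numbered libraries correlated at 0.035, 0.0311 and 0.0134, too low to pair them, though each library correlated best with its own number. The median change of members was 0.0258 with median-of-ratios scaling. That scaling turned the sign of Syp (0.0264), Sv2b (0.019), Rab3a (0.0117), Cplx3 (0.0258) and Rims2 (0.0132), and quantile normalization that of Syp (0.00111), Sv2b (0.0198), Cplx3 (0.0416) and Rims2 (0.027). Leaving out 1 library gave 0 to 1 calls among other presynaptic genes and turned the sign of small changes, with ranges of −0.0277 to 0.0215 (Syp), −0.0365 to 0.0862 (Syn1), −0.066 to 0.0534 (Sv2b), −0.0589 to 0.0168 (Rab3a), −0.00768 to 0.143 (Vamp1), −0.03998 to 0.0685 (Syt1), −0.0829 to 0.0296 (Syt4), −0.0546 to 0.0683 (Syt5), −0.115 to 0.0248 (Syt7), −0.104 to 0.0507 (Cplx3), −0.0252 to 0.136 (Rims1), −0.0441 to 0.0415 (Rims2), −0.0412 to 0.0714 (Bsn), −0.00193 to 0.0753 (Napa) and −0.118 to 0.142 (Slc32a1). For shares, the difference in percentage points ranged from −0.0607 to 0.663 (Cplx1), −3.03 to 0.873 (Rims2) and −1.16 to 0.674 (Sv2b). Snap25, Syt2, Vamp2 and Syt11 were separate under both other scalings, and Slc17a7 was too under median-of-ratios scaling. Syt2 and Sv2c lie under the filter of 5 TPM. The cause of these changes was not tested.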
